A study of Mus musculus with 9 samples.

Results

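The acute-phase genes described here are the 4 serum amyloid A genes Saa1, Saa2, Saa3 and Saa4, the lipocalin gene Lcn2, the orosomucoid genes Orm1, Orm2 and Orm3, the serpin gene Serpina3n and the haptoglobin gene Hp. They were found by gene name in a table of liver RNA-seq values, in which they are 10 of 54532 genes, and were followed through 3 groups of 3 libraries. All livers came from male C57BL/6 mice, which the study's methods give as 5 to 7 weeks old. The NC group is labelled control. The APAP group received 500 mg/kg acetaminophen (APAP), the drug whose overdose causes acute liver injury, by intraperitoneal injection after an overnight fast, and its livers were taken at 6 h. The AMSC group received the same dose of APAP and, directly afterwards, adipose-derived mesenchymal stem cells through the tail vein, and was also studied at 6 h. These AMSCs were expanded from inguinal fat of the same mouse strain, so transcripts of the injected cells and of the host cannot be told apart. The comparisons asked how the acute-phase genes stood after an APAP overdose, and how they stood when AMSCs had been given as well.

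The acute-phase response is the switch by which the liver, within hours of injury or infection, pours a set of defence and repair proteins into the blood. Interleukin 6 acts through its receptor and the transcription factor STAT3, and interleukin 1 acts through its receptor and NF-kB, with factors of the C/EBP family joining in at the promoters of many hepatocyte genes. Saa1 and Saa2 encode apolipoproteins that are induced in hepatocytes and travel on high-density lipoprotein. Saa3 is made mainly by cells other than hepatocytes, and Saa4 encodes a serum amyloid that the liver makes constitutively. Lcn2 is a secreted protein that binds iron-carrying siderophores of bacteria, and orosomucoids are plasma glycoproteins that bind lipids and drugs. Serpina3n is a secreted inhibitor of serine proteases, and Hp captures haemoglobin that has leaked from red cells.

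The values are FPKM (fragments per kilobase of gene length, scaled per library), and their low values gave back the reads behind them. Libraries held 14920463 to 15444087 reads on genes in the NC group, 13640978 to 14167230 in the APAP group and 13418921 to 16210930 in the AMSC group. A single read on a gene of 1 kb was worth 0.0578 to 0.0599 FPKM in NC, 0.0744 to 0.0807 in APAP and 0.0630 to 0.0769 in AMSC libraries. The scale thus did not follow the reads on genes alone, and how it was set is not given in the sources used here. Differences between groups in abundant genes and in marker sums depend on this scale. The effect of another normalization is given below for some genes, such as Hp. The AMSC libraries carry the numbers 2, 3 and 4. NC replicate 3 carries another date in its label than the other libraries, so the results against the NC group are also given without it. All 10 hepatocyte markers of a fixed list, among them Alb and Ttr, were measured in every library, and their summed level was 43262 to 46721 FPKM in NC, 59221 to 67769 FPKM in APAP and 55655 to 57740 FPKM in AMSC livers. Of these markers, Cyp2e1, the enzyme that turns APAP into its reactive metabolite, was 3408 ± 181 FPKM in NC, 847 ± 635 in APAP and 3619 ± 199 in AMSC livers. The study's methods call the libraries of a group biological replicates, the labels name no animals, and p-values measure the spread between these samples.

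The genes lie in 5 places of the genome. On GRCm38, the serum amyloid A genes lie together at chr7:46711998-46754313, in the order Saa3, Saa4, Saa1 and Saa2, with Saa2 on the plus strand and the others on the minus strand. The orosomucoid genes lie at chr4:63344560-63365878 on the plus strand, in the order Orm1, Orm3 and Orm2. Lcn2 (ENSMUSG00000026822) is at chr2:32384633-32388252, Serpina3n (ENSMUSG00000021091) at chr12:104406729-104414329 and Hp (ENSMUSG00000031722) at chr8:109575128-109579172. No other annotated gene overlaps any of the 10. Between Saa1 (ENSMUSG00000074115) and Saa2 (ENSMUSG00000057465) there are 8809 bases, and 93.5% of aligned bases of their coding transcripts are identical, with a longest shared run of 76 bases. The identity was 91.0% for Orm1 and Orm2, 86.1% for Orm1 and Orm3 and 88.0% for Orm2 and Orm3. How reads from such copies were shared out is not given in the sources used here, so the separate values of Saa1 and Saa2, and of Orm1, Orm2 and Orm3, are uncertain. The identity of Saa1 with Saa3 was 63.7% and with Saa4 57.7%.

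The sequences just before the start of 6 of these genes are shown because neighbouring copies in the same locus had different levels. They are from RefSeq (GRCm38.p6), run 5′ to 3′ on the gene's own strand from base -200 to base -44 before the RefSeq start, and capitals mark matches to the C/EBP motif TTNNGNAA or the NF-kB motif GGNNTTTCC on either strand. The windows are chr7:46743024-46743180 (minus strand) for Saa1, chr7:46751633-46751789 (plus) for Saa2, chr7:46715720-46715876 (minus) for Saa3, chr7:46732647-46732803 (minus) for Saa4, chr4:63362249-63362405 (plus) for Orm2 and chr4:63355958-63356114 (plus) for Orm3.
Saa1: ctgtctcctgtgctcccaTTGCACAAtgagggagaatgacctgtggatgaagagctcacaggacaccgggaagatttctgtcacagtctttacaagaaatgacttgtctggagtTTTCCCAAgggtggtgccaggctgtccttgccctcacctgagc
Saa2: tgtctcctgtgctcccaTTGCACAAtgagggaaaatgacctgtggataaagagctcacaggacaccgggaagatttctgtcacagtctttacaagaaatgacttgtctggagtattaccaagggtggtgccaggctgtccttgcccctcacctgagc
Saa3: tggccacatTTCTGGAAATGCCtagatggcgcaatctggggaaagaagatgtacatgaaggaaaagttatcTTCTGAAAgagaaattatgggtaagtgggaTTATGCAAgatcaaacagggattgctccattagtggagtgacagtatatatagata
Saa4: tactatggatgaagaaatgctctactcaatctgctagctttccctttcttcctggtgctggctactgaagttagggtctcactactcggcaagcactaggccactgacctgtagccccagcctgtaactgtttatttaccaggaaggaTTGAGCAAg
Orm2: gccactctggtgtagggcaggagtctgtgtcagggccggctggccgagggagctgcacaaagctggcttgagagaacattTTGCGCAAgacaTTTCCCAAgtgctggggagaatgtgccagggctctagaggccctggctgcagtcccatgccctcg
Orm3: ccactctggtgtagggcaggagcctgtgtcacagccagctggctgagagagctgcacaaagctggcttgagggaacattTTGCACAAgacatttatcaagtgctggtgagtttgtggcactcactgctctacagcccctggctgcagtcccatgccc
The windows of Saa1 and Saa2 were 96.8% identical (152 of 157 aligned bases), those of Orm2 and Orm3 86.0%, and those of Saa1 and Saa3 51.3%. Saa1 has 2 C/EBP matches, starting at -182 and -86, and Saa2 has 1, starting at -183. In Saa3, a C/EBP match that starts at -191 overlaps the NF-kB match that starts at -187. Promoter windows of 8 of the 10 genes were in the table, all but those of Orm1 and Hp. Over the 250 bases before the start, the C/EBP motif was found in 8 of 8, against 36.8% of 32851 mouse promoters. The NF-kB motif was found in 2 (Saa3 and Serpina3n), against 4.93%. The glucocorticoid receptor motif ACANNNTGT was found in 3 (Lcn2, Orm3 and Serpina3n), against 5.84%. The STAT motif TTCNNNGAA was found in 0 of the 8, against 7.02%. A match is a run of letters, and nothing about the binding of a factor follows from its presence or absence.

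The 10 genes were chosen by their names with the FPKM levels of these 3 groups in view. Their levels and fold changes are therefore a description, with no p-value. Fold changes are differences of the mean log2(FPKM + 1) between groups, with the standard error (SE) of the limma fit, and the added 1 makes those of low genes smaller. In bulk liver, fewer cells of a type and less RNA per cell cannot be told apart.

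Saa1 and Saa2, the inducible serum amyloids, were low in NC and APAP livers alike and high in every AMSC liver. Saa1 was 19.9, 13.9 and 21.3 FPKM in NC replicates 1, 2 and 3, 13.3, 23.4 and 19.2 FPKM in APAP replicates 1, 2 and 3, and 317, 699 and 158 FPKM in AMSC replicates 2, 3 and 4. The NC and APAP ranges overlapped, and the lowest AMSC library was above all 6 of them. The AMSC mean of 391 ± 278 FPKM (SD, n = 3) was 21.0-fold the APAP mean of 18.6 ± 5.08, a log2 fold change of 4.10 (SE 0.48), while APAP against NC gave 0.01 (SE 0.23), or -0.06 after quantile normalization. Saa2 was 2.71, 3.70 and 4.41 FPKM in NC, 3.02, 4.81 and 2.63 FPKM in APAP and 167, 429 and 65.3 FPKM in AMSC livers. It had the same pattern at a lower level, with 89 to 191 reads in each NC and APAP library and 2473 to 14049 in each AMSC library. Its AMSC mean of 221 ± 188 FPKM was 63.3-fold the APAP mean of 3.49 ± 1.16, a log2 fold change of 5.26 (SE 0.59), the largest of the 10 genes in this comparison. Both fold changes were smaller without AMSC replicate 3, at 3.55 for Saa1 and 4.59 for Saa2.

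**Figure D1:**
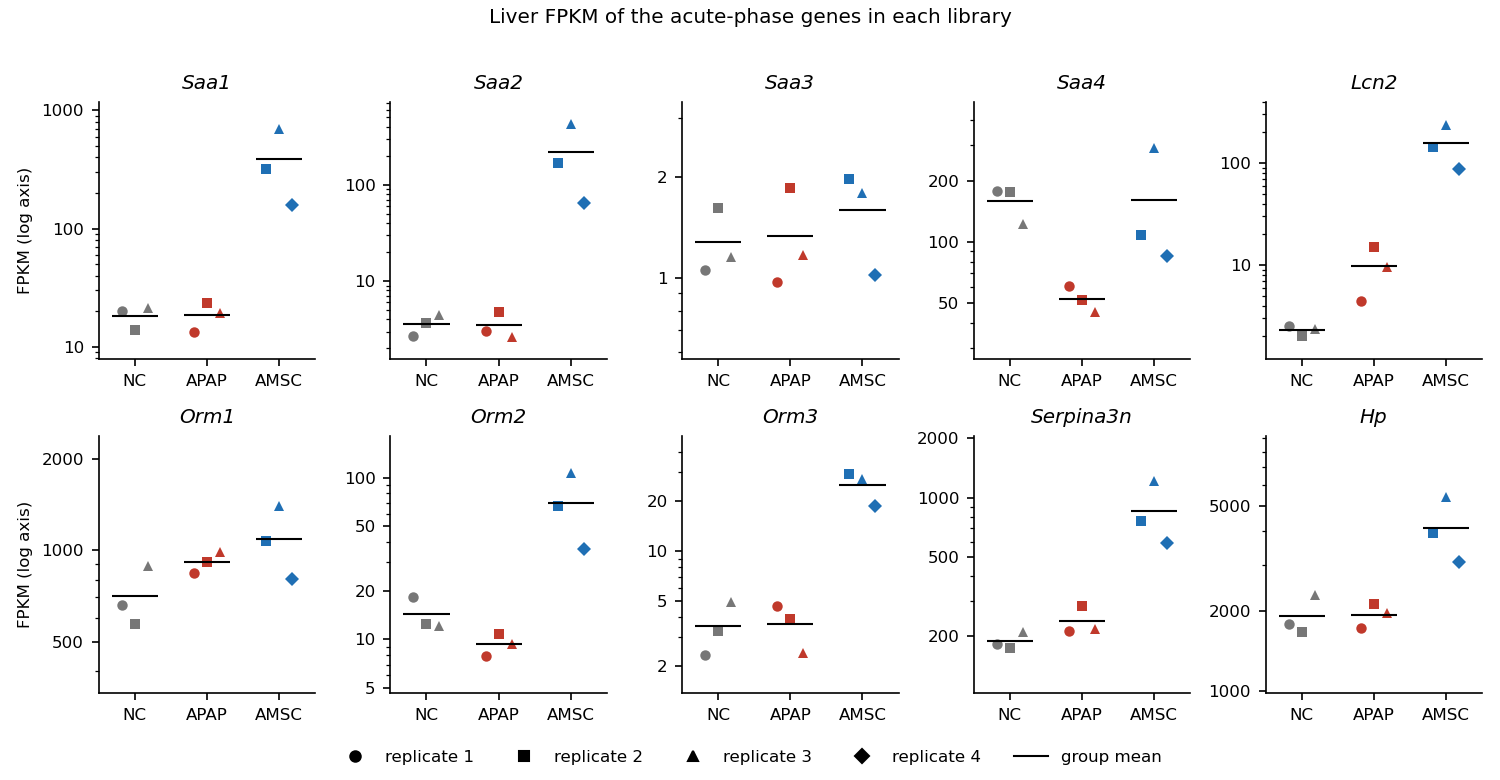
Each panel plots the FPKM of 1 gene on a log axis (ranges differ between panels), with a point per library, shaped by replicate number, and a line at the group mean (n = 3). Saa1, Saa2, Saa4, Lcn2, Orm2, Orm3, Serpina3n and Hp have all AMSC points above all APAP points, Saa4 and Orm2 have all APAP points below all NC points, and Saa3 and Orm1 overlap in every comparison.

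The other 2 serum amyloid genes did not follow them. Saa4, the constitutive form, was 178, 177 and 123 FPKM in NC, 60.5, 51.9 and 45.0 FPKM in APAP and 108, 289 and 85.3 FPKM in AMSC livers. All APAP libraries were below all libraries of both other groups, and AMSC replicate 3 was the highest of the 9. Against NC the log2 fold change was -1.57 (SE 0.19) in APAP livers, where the mean was 52.5 ± 7.79 FPKM instead of 159 ± 31.6, and -0.18 (SE 0.41) in AMSC livers. Against APAP it was 1.39 (SE 0.41) in AMSC livers, and 0.87 without AMSC replicate 3. Saa3, the form made mainly outside hepatocytes, was at 1.06, 1.62 and 1.16 FPKM in NC, 0.973, 1.86 and 1.17 FPKM in APAP and 1.98, 1.80 and 1.02 FPKM in AMSC livers. These values rest on 34 to 82 reads per library, the 3 groups overlapped, and the log2 fold changes were 0.02 (SE 0.18) for APAP against NC, -0.01 after quantile normalization, and 0.15 (SE 0.20) for AMSC against APAP. The locus thus held genes 63.3-fold higher and genes 1.20-fold higher in AMSC than in APAP livers, in ratios of means. The map of the serum amyloid and orosomucoid loci shows these differences by position.

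**Figure D2:**
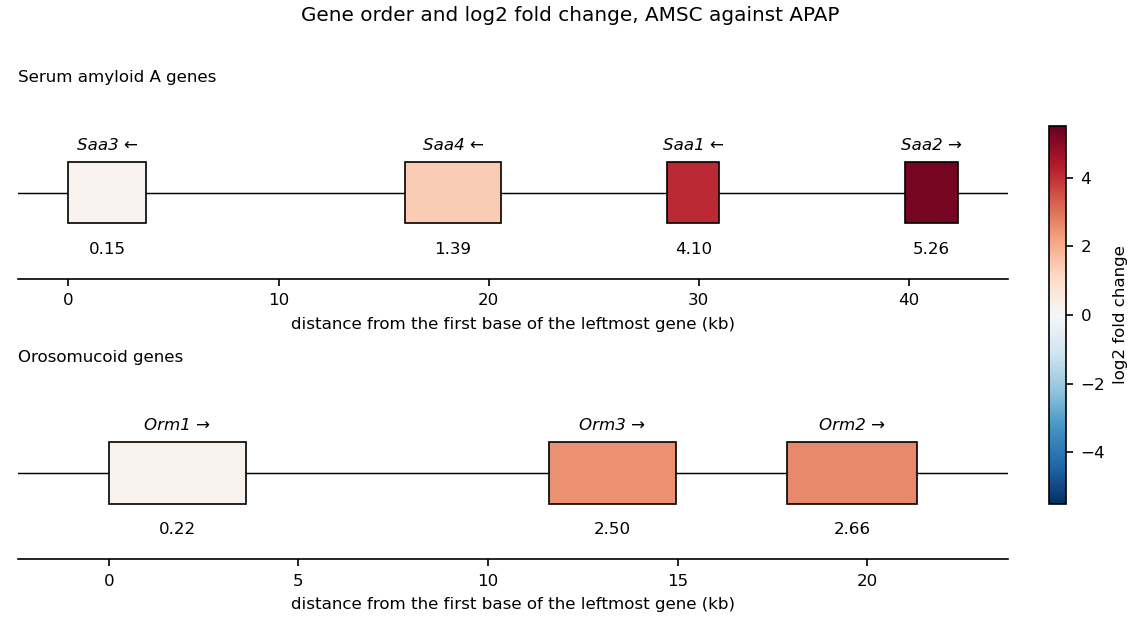
Genes of the serum amyloid A locus (top) and the orosomucoid locus (bottom) are drawn to scale by distance in kb from the leftmost gene's first base, with arrows for strand and colour and numbers for the log2 fold change of AMSC against APAP. The values run from 0.15 for Saa3 to 5.26 for Saa2 and from 0.22 for Orm1 to 2.66 for Orm2.

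Lcn2 was higher in APAP than in NC livers and higher again in AMSC livers. It was 2.54, 2.03 and 2.35 FPKM in NC, 4.43, 15.1 and 9.67 FPKM in APAP and 145, 236 and 87.8 FPKM in AMSC livers. The 3 groups did not overlap, and the spread between libraries was widest in the APAP group, where the highest was 3.40-fold the lowest. The mean of 156 ± 74.8 FPKM in AMSC livers was 16.1-fold the mean of 9.73 ± 5.32 in APAP livers and 67.9-fold the mean of 2.30 ± 0.257 in NC livers. The log2 fold changes were 1.57 (SE 0.35) for APAP against NC, 3.90 (SE 0.45) for AMSC against APAP and 5.46 (SE 0.30) for AMSC against NC, the largest of the 10 genes in that comparison.

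The orosomucoid genes differed from one another. Orm1, by far the most abundant, was 659, 573 and 887 FPKM in NC, 841, 918 and 985 FPKM in APAP and 1073, 1407 and 804 FPKM in AMSC livers. Its groups overlapped in all comparisons, with log2 fold changes of 0.39 (SE 0.18) for APAP against NC (0.07 after quantile normalization), 0.22 (SE 0.21) for AMSC against APAP and 0.62 (SE 0.23) for AMSC against NC (0.16 after quantile normalization). Orm2 was 18.3, 12.5 and 12.1 FPKM in NC, 7.89, 10.8 and 9.31 FPKM in APAP and 66.9, 107 and 36.5 FPKM in AMSC livers. All APAP libraries were below all NC libraries, with a log2 fold change of -0.55 (SE 0.18), and all AMSC libraries were above both, at 2.66 (SE 0.34) against APAP and 2.11 (SE 0.35) against NC. Orm3 was 2.33, 3.29 and 4.89 FPKM in NC, 4.63, 3.86 and 2.41 FPKM in APAP and 29.4, 27.2 and 18.8 FPKM in AMSC livers. The NC and APAP libraries overlapped, each with 25 to 65 reads, and the AMSC libraries lay above them with a log2 fold change of 2.50 (SE 0.23) against APAP. Orm3 was the steadiest in the AMSC group of the 7 genes past both thresholds there, with a coefficient of variation of 22.3%, against 85.1% for Saa2.

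Serpina3n and Hp were already abundant in NC livers and were higher in AMSC livers by smaller factors. Serpina3n was 183, 174 and 211 FPKM in NC, 211, 282 and 217 FPKM in APAP and 761, 1211 and 593 FPKM in AMSC livers. Every AMSC library was above every other library, and the APAP libraries were above the NC libraries by a margin that nearly closed between NC replicate 3 (210.6 FPKM) and APAP replicate 1 (211.1 FPKM). The log2 fold change was 1.80 (SE 0.26) for AMSC against APAP and 0.31 (SE 0.16) for APAP against NC, or -0.01 after quantile normalization. Hp was 1791, 1666 and 2297 FPKM in NC, 1725, 2121 and 1975 FPKM in APAP and 3947, 5396 and 3055 FPKM in AMSC livers. NC and APAP overlapped, with a log2 fold change of 0.03 (SE 0.17), or -0.40 after quantile normalization, and all AMSC libraries lay above both, at 1.06 (SE 0.22) against APAP and 1.08 (SE 0.22) against NC. By level, Hp stood between ranks 25 and 29 of all genes in NC, 35 and 38 in APAP and 9 and 18 in AMSC libraries.

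A gene passed the test when its adjusted p was at most 0.05 and its log2 fold change at least 1 in either direction, in a limma fit over the 9699 genes whose mean reached 1 FPKM. All 10 genes were in the fit, and each had a mean of at least 1 FPKM in every group. For APAP against NC, 2 of 10 passed both thresholds (Lcn2 higher, Saa4 lower), where 7.9% of all genes tested did (5.09% higher and 2.8% lower). For AMSC against APAP, 7 of 10 did, all higher (Saa1, Saa2, Lcn2, Orm2, Orm3, Serpina3n and Hp), where 0.742% of all genes passed and were higher. For AMSC against NC the same 7 passed, all higher, where 3.92% of all genes did. Nothing is read from these counts, since the genes were chosen with these groups in view, and the comparisons share libraries. The AMSC libraries were all above the APAP libraries in 8 of the 10, against 14.6% of all genes, and above the NC libraries in 7, against 23.2%. The APAP libraries were all above the NC libraries in 2, against 20.9%, and all below in 2, against 22.3%. The median log2 fold change of the 10 was 0.02, 2.15 and 2.11 in the order APAP against NC, AMSC against APAP and AMSC against NC, and that of all genes -0.0043, 0.01 and 0.02. Without NC replicate 3, again 2 and 7 of the genes passed against NC.

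**Figure D3:**
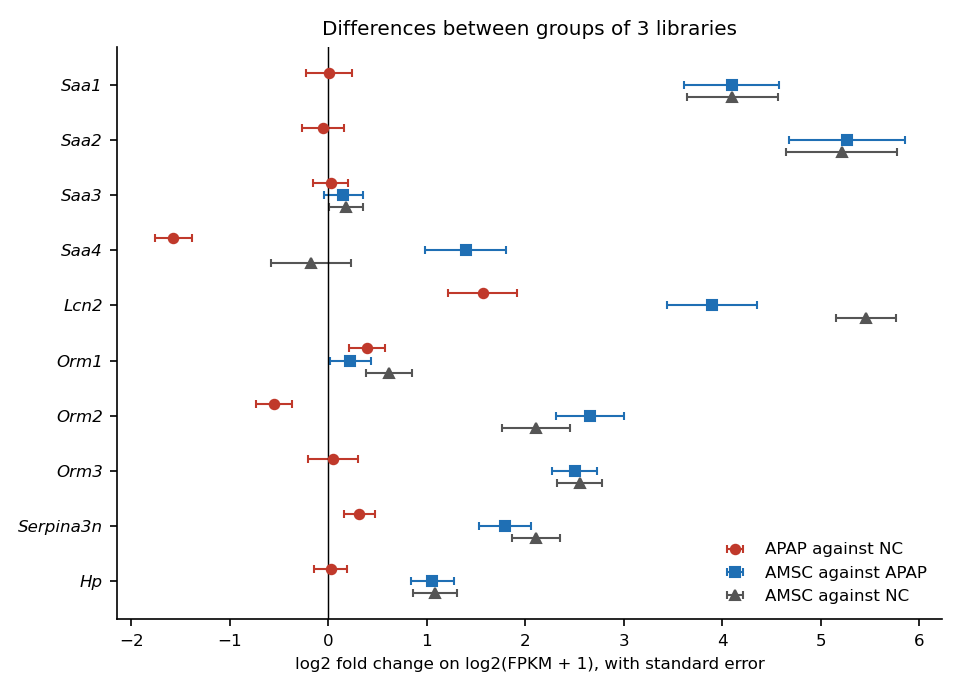
Points are log2 fold changes on log2(FPKM + 1) of the 10 genes in the 3 comparisons and bars are standard errors of the fit (3 libraries per group). The AMSC values run from 0.15 for Saa3 to 5.26 for Saa2 against APAP, and the APAP values against NC from -1.57 for Saa4 to 1.57 for Lcn2.

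Single libraries decided some of these calls. Hp, close to the fold threshold, did not pass for AMSC against APAP when any 1 of the 6 libraries was left out, with log2 fold changes of 0.84 to 1.25, nor for AMSC against NC without NC replicate 2 (0.99) or AMSC replicate 3 (0.87), nor there after quantile normalization (0.83). Serpina3n did not pass for AMSC against APAP without APAP replicate 3 (1.74) or AMSC replicate 2 (1.85). Lcn2 did not pass for APAP against NC without NC replicate 2 (1.51). When all 24849 genes above 0 were tested, limma called 1 of the 10 for APAP against NC, where 2.38% of all genes were called. It called 0 for AMSC against APAP, where 8 had an unadjusted p under 0.05 and 0.0845% of all genes were called, and 5 for AMSC against NC, where 1.94% were. In that fit 0 of the other acute-phase genes and of the ligands, receptors and transducers passed for AMSC against APAP.

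The 3 AMSC livers differed from each other in a regular way. The order was replicate 3, then 2, then 4 from high to low in 8 of the 10 genes, and 2, then 3, then 4 in Saa3 and Orm3. AMSC replicate 4 was thus the lowest in all 10 genes, and it was still above every APAP library in 8 of them. Among all genes tested, 14.8% and 11.7% had these orders. The 10 genes together took 1.04%, 1.59% and 0.765% of the reads on genes in AMSC replicates 2, 3 and 4, compared with 0.454% to 0.577% in NC and 0.383% to 0.448% in APAP libraries. The highest AMSC library was 6.57-fold the lowest for Saa2, 4.43-fold for Saa1 and 1.57-fold for Orm3.

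Sums over near-identical copies depend less on how reads were shared out. Saa1 and Saa2 together were 22.0 ± 4.12 FPKM in NC, 22.1 ± 5.96 in APAP and 612 ± 466 in AMSC livers (SD, n = 3), with a log2 fold change of 4.46 for AMSC against APAP. All AMSC libraries stayed above all APAP and NC libraries. Of the reads on this pair, Saa2 took 12.2% to 21.3% in NC, 12.2% to 18.7% in APAP and 29.6% to 38.4% in AMSC libraries, so the AMSC shares lay above all others. The sum of the 3 orosomucoids was dominated by Orm1, and its groups overlapped in every comparison, at 724 ± 163 FPKM in NC, 928 ± 71.8 in APAP and 1190 ± 342 in AMSC livers. Orm1 took 97.0% to 98.1% of the orosomucoid reads in NC, 98.4% to 98.8% in APAP and 91.3% to 93.6% in AMSC libraries.

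Levels of different genes can be set side by side only per length, and here the length matters. The deposited gene length was that of all annotated exons merged, which for some genes includes transcripts that are not coding. For Saa1 it was 2478 bases against 609 in the coding transcript, a ratio of 4.07, and for Saa2, Saa3 and Lcn2 the ratios were 3.86, 4.70 and 2.87. It was 1.19 for Hp and 1 for the other 5 genes. On the deposited scale, the order of mean levels in AMSC livers was Hp, Orm1, Serpina3n, Saa1, Saa2, Saa4, Lcn2, Orm2, Orm3 and Saa3. By coding transcript length, Saa1 (1591 ± 1131 FPKM) moved above Orm1 (1095 ± 302 FPKM) and Serpina3n (855 ± 319 FPKM), to the place after Hp (4935 ± 1411 FPKM), and Lcn2 moved above Saa4. On the deposited scale, 7 of the 9 pairs of neighbours in this order had the same order in all 3 AMSC libraries. The exceptions were Saa2 and Saa4, in this order in 2 libraries, and Saa4 and Lcn2, in this order in 1. By coding length 7 of 9 pairs also kept their order in all 3, and the exceptions, in 2 libraries each, were Saa1 and Orm1, and Serpina3n and Saa2. In NC livers Hp was also the highest, followed by Orm1, Serpina3n, Saa4 and Saa1 on both scales. The length of a gene is the same in all libraries and does not enter its fold change, apart from the weight of the added 1.

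For 5 of the genes, the 3 genes with the most similar pattern were looked up by the root mean square difference of log2(FPKM + 1) over the 9 libraries, each gene centred on its own mean, leaving out the 10 genes themselves. For Serpina3n they were Scara5 (0.17), Fkbp5 (0.26), a glucocorticoid-induced co-chaperone, and Lrg1 (0.29), an acute-phase glycoprotein. For Hp they were Gm7694 (0.14), Cyp3a13 (0.16) and Fgl1 (0.17), a secreted liver protein, and for Orm1 they were Apcs (0.16), the serum amyloid P gene, Gm14648 (0.16) and Cyp39a1 (0.17). By this distance, Saa1 and Lcn2 had no gene as close as those. Outside the 10, the nearest to Saa1 was Ddit4 (0.89), a stress-induced inhibitor of mTOR signalling, then Gm15502 (0.94) and the interleukin 1 receptor gene Il1r1 (0.98), and the nearest to Lcn2 were Il1r1 (0.92), Gadd45g (1.08) and Dnajb1 (1.08). Among the 10 genes, Saa1 was closer than these to Saa2 (0.61), Lcn2 (0.75) and Orm2 (0.87), and Lcn2 was closer than these to Saa1 (0.75) and Saa2 (0.84). Saa1 and Lcn2 vary by 2.01 and 2.35 around their own means on this scale, Serpina3n by 0.97, Hp by 0.56 and Orm1 by 0.36. Genes that vary less can have smaller distances, so closeness cannot be compared between these 5 genes. The added 1 shrinks the changes of low genes, so a small distance to such a gene does not mean equal ratios of FPKM. Scara5 had means of 0.471, 0.452 and 5.01 FPKM in NC, APAP and AMSC livers, and Gm7694 had 0.963, 1.02 and 4.04 FPKM. Gm14648 had means of 0.886 FPKM in NC and 1.27 FPKM in APAP livers. All 9 points share their libraries and groups, so likeness is a description.

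Within 100 kb of these loci, 18 other genes could be tested, and 2 of them passed in at least 1 comparison. Of all genes tested, 7.9%, 1.96% and 6.01% passed for APAP against NC, AMSC against APAP and AMSC against NC. With so few neighbours, nothing is read from their counts. Beside the serum amyloid and orosomucoid loci and Hp there were 10, and 0 of them passed limma in any comparison. Of these 10, 3, 3 and 4 had an unadjusted p under 0.05 for APAP against NC, AMSC against APAP and AMSC against NC, and voom on the recovered reads called 1, Col27a1, lower in APAP livers. The lowest adjusted p was that of Ldha, 87162 bases from the nearest serum amyloid gene, in AMSC against NC livers (0.00199, log2 fold change 0.87). Beside Lcn2, Slc25a25, a mitochondrial carrier gene, rose in APAP (2.13, adjusted p = 0.00102) and AMSC livers (1.22, adjusted p = 0.00391) against NC. Beside Serpina3n, Serpina3m rose in AMSC against NC livers (1.71, SE 0.17, adjusted p = 0.000351 from limma), while AMSC against APAP gave 1.25 (SE 0.27, adjusted p = 0.0505), a value that passed after quantile normalization, in a fit of all 9 libraries, with voom or without APAP replicate 2 (adjusted p = 0.0162 to 0.0346).

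Other acute-phase proteins, in a list of 32 genes without the 10, changed in part. Of 29 tested, 6 rose and 0 fell in APAP against NC livers (20.7%, where 7.9% of all genes passed), and their median log2 fold change was 0.56, or 0.24 after quantile normalization, beside -0.0043 for all genes. The metallothioneins Mt2 and Mt1, which bind zinc and copper, rose by log2 fold changes of 5.25 (SE 0.21) and 5.13 (SE 0.44), and Cd14, the lipopolysaccharide co-receptor, by 5.15 (SE 0.28), with adjusted p of 1.41e-05, 0.000324 and 4.83e-05 from limma. Agt, angiotensinogen, rose by 1.43, the protease gene Ctsl by 1.30 and the fibrinogen gene Fgg by 1.03, and Fgg did not pass without NC replicate 2 or APAP replicate 3 (0.97 to 0.99) or after quantile normalization (0.74). Hamp, at -0.97 (SE 0.25), fell past both thresholds after quantile normalization (-1.35, adjusted p = 0.0116 from limma) and without APAP replicate 1 or 3, so that the normalized counts were 5 higher and 1 lower. In AMSC against APAP livers 3 rose and 1 fell (13.8%, against 1.96% of all genes), with a median of 0.19 beside 0.01. Steap4, a metalloreductase, rose by 1.81 (SE 0.32, adjusted p = 0.0292 from limma), Hamp, the iron hormone hepcidin, by 1.61 (SE 0.30, adjusted p = 0.0343) and Lrg1 by 1.44 (SE 0.25, adjusted p = 0.0283), and Cd14 fell by 3.22 on the log2 scale (SE 0.38, adjusted p = 0.00812). Leaving out 1 library ended 3 of these calls: that of Lrg1 without APAP replicate 3 or any AMSC library (adjusted p = 0.0696 to 0.108), that of Hamp without any library but APAP replicate 3 (0.0512 to 0.108) and that of Steap4 without any APAP library or AMSC replicate 2 (0.0532 to 0.0824). Quantile normalization also ended that of Hamp (adjusted p = 0.0536).

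Against NC, 10 of the 29 rose in AMSC livers and 0 fell (34.5%, against 6.01% of all genes), with a median of 0.69, and without NC replicate 3 the counts against NC were again 6 for APAP and 10 for AMSC livers. Here all 3 fibrinogen chains passed, Fga by 1.58 (SE 0.16), Fgb by 1.60 (SE 0.15) and Fgg by 1.64 (SE 0.15), with adjusted p between 0.00021 and 0.000363 from limma. Fga was 751 ± 29.6 FPKM in NC, 1447 ± 58.2 in APAP and 2277 ± 457 in AMSC livers, and all 3 chains had their lowest mean in NC and their highest in AMSC livers. Lrg1 rose by 1.87 (SE 0.15, adjusted p = 0.000108), Ctsl by 1.85, Agt by 1.35 (0.95 and not passing after quantile normalization) and Steap4 by 1.12, a call that ended without any 1 NC library, without AMSC replicate 3 or after quantile normalization. Several liver plasma proteins moved less. Hpx, which binds haem, had log2 fold changes of 0.64 (SE 0.14) for APAP and 0.69 (SE 0.15) for AMSC against NC, Lbp, the lipopolysaccharide-binding protein, 0.76 (SE 0.14) and 0.99 (SE 0.10), C3 0.56 (SE 0.26) and 0.31 (SE 0.19), ceruloplasmin (Cp) 0.48 (SE 0.16) and 0.07 (SE 0.12) and Apcs 0.21 (SE 0.14) and 0.64 (SE 0.14). Crp, a strong acute-phase protein in humans and a weak one in mice, was at 96.2 ± 8.50, 86.9 ± 9.46 and 63.8 ± 6.27 FPKM in NC, APAP and AMSC livers, with a log2 fold change of -0.59 (SE 0.12) for AMSC against NC.

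**Figure D4:**
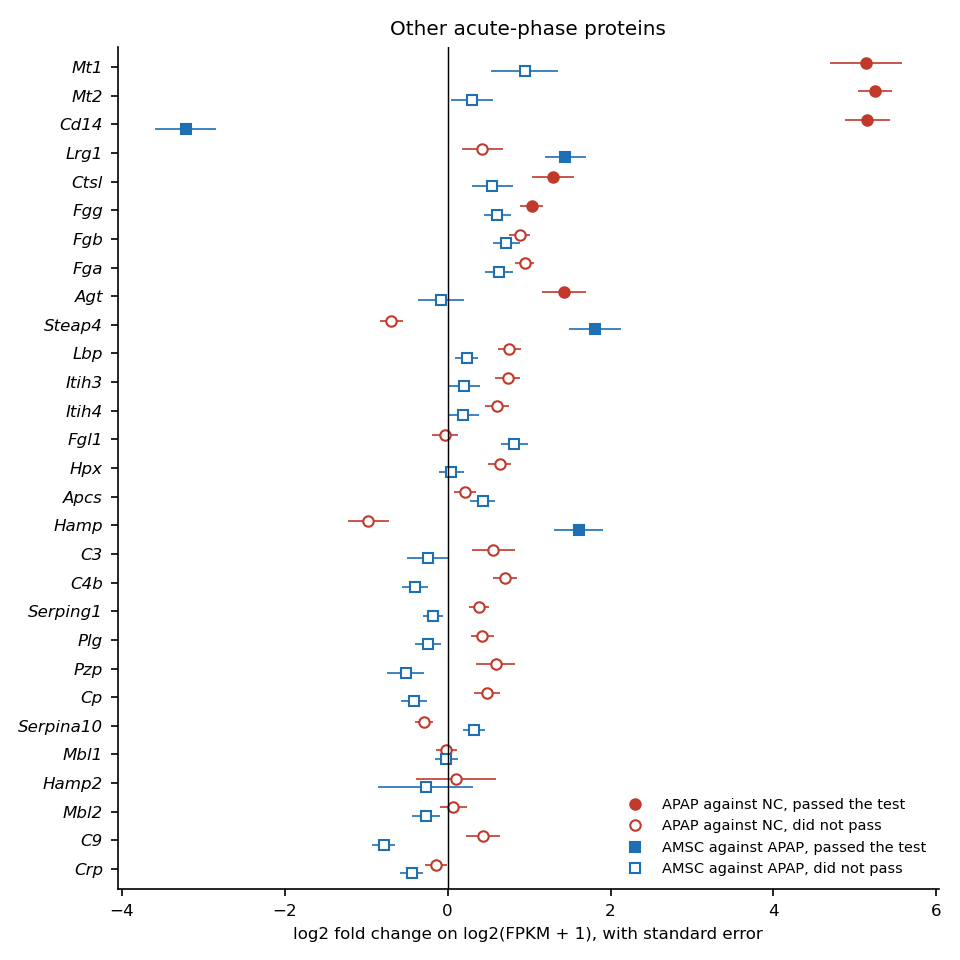
Log2 fold changes on log2(FPKM + 1) with standard errors are plotted for the 29 other acute-phase genes tested, in APAP against NC (circles) and AMSC against APAP (squares), filled where the gene passed the test. Mt1, Mt2 and Cd14 lie furthest right for APAP against NC, and Cd14 is the lowest for AMSC against APAP at -3.22.

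Of the signals that drive the response, few ligands were measurable in liver RNA. Only 3 of 11 ligand genes reached a mean of 1 FPKM. Il6 was at 0.00798 ± 0.0138 FPKM in NC, 0.126 ± 0.0311 in APAP and 0.00864 ± 0.0150 in AMSC livers. Osm was at 0.0170 ± 0.0295, 0.190 ± 0.0348 and 0.0195 ± 0.0338 FPKM in the same order. For both, all APAP libraries were above all NC and AMSC libraries, at levels of few reads. Tnf was at 0.0471, 0.0758 and 0.0285 FPKM in the mean, and its groups overlapped. Il1b rose in APAP against NC livers (log2 fold change 1.81, SE 0.45, adjusted p = 0.0236 from limma) and fell in AMSC against APAP livers by 2.19 (SE 0.42, adjusted p = 0.0367), from 5.02 ± 3.28 to 0.160 ± 0.113 FPKM. Il1a fell there by 1.01 (SE 0.21, adjusted p = 0.0421). Both falls were lost without APAP replicate 1, APAP replicate 3 or any AMSC library (adjusted p = 0.0530 to 0.133), and the rise of Il1b without NC replicate 1, NC replicate 2, APAP replicate 1 or APAP replicate 3 (0.0549 to 0.0837). The fall of Il1b did not pass with voom (0.0583), nor that of Il1a with an added 0.1 (0.0707).

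The 9 receptor genes tested were split for AMSC against APAP, with 4 higher, 5 lower and a median log2 fold change of -0.16. Of the 9, 2, 2 and 3 passed, all higher, for APAP against NC, AMSC against APAP and AMSC against NC. Of all genes, 7.9%, 1.96% and 6.01% passed. Tnfrsf1b rose in APAP against NC livers (1.16, SE 0.19) and had -0.37 (SE 0.18) for AMSC against APAP. The interleukin 1 receptor, the interleukin 6 receptor and Tnfrsf1a had their highest mean levels in AMSC livers. Il1r1 was 3.37 ± 0.836 FPKM in NC, 12.1 ± 4.47 in APAP and 53.0 ± 13.7 in AMSC livers. It rose in APAP against NC (1.56, SE 0.25, adjusted p = 0.00432 from limma), in AMSC against APAP (2.06, SE 0.26, adjusted p = 0.00956) and in AMSC against NC (3.62, SE 0.20, adjusted p = 2.12e-05), and passed without any 1 library. Il6ra was 7.26 ± 1.78, 8.30 ± 1.14 and 17.8 ± 3.31 FPKM and rose in AMSC against APAP (1.01, SE 0.17, adjusted p = 0.0259) and against NC (1.20, adjusted p = 0.00352). The former call was lost without APAP replicate 1, APAP replicate 3, AMSC replicate 3 or AMSC replicate 4 (log2 fold change 0.93 to 0.98). Il6st, the shared signalling chain, had a log2 fold change of -0.28 (SE 0.24) for AMSC against APAP. Osmr, too low to be tested, was 0.164 ± 0.0405 FPKM in NC, 1.32 ± 0.0750 in APAP and 0.595 ± 0.128 in AMSC livers. All its APAP libraries were above all NC and AMSC libraries. The soluble and membrane forms of a receptor are not separated by these values.

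Transducers and transcription factors moved mainly between NC and the 2 treated groups. Of 32 tested, 7 rose and 3 fell in APAP against NC livers, 1 rose in AMSC against APAP livers and 8 rose in AMSC against NC livers, where 7.9%, 1.96% and 6.01% of all genes passed. Stat3 was 6.35 ± 0.294 FPKM in NC, 17.1 ± 4.56 in APAP and 24.6 ± 6.68 in AMSC livers, with log2 fold changes of 1.27 (SE 0.18) for APAP against NC, 0.50 (SE 0.24) for AMSC against APAP and 1.77 (SE 0.17) for AMSC against NC. Its feedback inhibitor gene Socs3 rose by 2.66 and 2.57 against NC, Nfkbiz, an NF-kB cofactor, by 2.25 and 2.62, Cebpd by 1.77 and 2.43 and Cebpb by 1.63 and 2.17 in APAP and AMSC livers, with adjusted p of at most 0.021 from limma. The rise of Cebpb in APAP livers was lost without any 1 NC library, APAP replicate 2 or APAP replicate 3 (adjusted p = 0.0582 to 0.0682). For AMSC against APAP, the differences of Socs3 (-0.09, SE 0.32), Nfkbiz (0.37, SE 0.23), Cebpd (0.66, SE 0.24) and Cebpb (0.54, SE 0.40) did not pass. Ikbkg, the regulatory subunit of the kinase that activates NF-kB, was the gene that did (1.06, SE 0.23, adjusted p = 0.0492), and no longer did when any 1 of the 6 libraries was left out (0.0548 to 0.134), with an added 0.1, with a mean of at least 5 FPKM or after quantile normalization (0.0501 to 0.0579). Over ligands, receptors and transducers together, 44 of 59 were tested, and their median log2 fold change was 0.32, 0.08 and 0.26 for APAP against NC, AMSC against APAP and AMSC against NC. Of these, 13 and 11 passed for APAP and AMSC against NC, and 11 and 11 without NC replicate 3.

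Relatives and partners of the 10 genes gave a mixed picture. Of the other Serpina3 genes, 4 of 10 were tested, and reads may be shared among them. Serpina3g rose from 1.20 ± 0.535 FPKM in NC to 18.0 ± 2.51 in APAP livers (3.12, SE 0.19, adjusted p = 6.69e-05 from limma) and Serpina3f from 0.511 ± 0.130 to 10.5 ± 3.22 (2.89, SE 0.21, adjusted p = 0.000164). Both fell in AMSC against APAP livers, Serpina3f by 1.73 (SE 0.21, adjusted p = 0.00812) and Serpina3g to 8.47 ± 1.25 FPKM (adjusted p = 0.019), the latter not without APAP replicate 1 or any AMSC library, nor after quantile normalization. The other 2 of the 4 were higher there, and neither passed in the main fit. Serpina3m was 287 ± 95.6 FPKM in APAP and 671 ± 163 in AMSC livers (1.25, SE 0.27), and Serpina3k had 0.08 (SE 0.15). Serpina3n was 3.61-fold higher in that comparison. The receptor and partner genes of the 10, such as Scarb1, a receptor for high-density lipoprotein, and Cd163, the haptoglobin-haemoglobin scavenger receptor, had 7 of 14 tested. Hmox1, which breaks down haem, rose by 6.85 in APAP and 6.55 in AMSC against NC livers, and 0 of the 7 passed limma for AMSC against APAP, where 2 had an unadjusted p under 0.05 and voom called 1.

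Of 12 genes whose proteins are known to decrease during an acute-phase response, few passed. Against NC, 1 rose (Apoa4) and 1 fell (Serpina6) in APAP livers and again in AMSC livers, which is 16.7% where 7.9% and 6.01% of all genes passed. Their log2 fold changes were above 0 in 10 and below 0 in 2 for both groups, with medians of 0.35 for APAP and 0.27 for AMSC livers. After quantile normalization 6 were above and 6 below 0 for APAP (median -0.022), and 7 above and 5 below for AMSC livers (median 0.018). Serpina6, the corticosteroid-binding globulin, fell by 1.09 (SE 0.24, adjusted p = 0.0136 from limma) and by 1.18 (SE 0.19, adjusted p = 0.00352), the former not without NC replicate 1, NC replicate 2 or APAP replicate 2. For AMSC against APAP 0 of 12 passed in limma or voom, and 2 had an unadjusted p under 0.05 in limma. Albumin (Alb) had log2 fold changes of 0.64 (SE 0.13), -0.43 (SE 0.15) and 0.21 (SE 0.15) for APAP against NC, AMSC against APAP and AMSC against NC, Ttr 0.17, -0.17 and 0.00 and Rbp4 0.12, 0.21 and 0.34.

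Lcn2 and Saa3 are also known from myeloid cells, and summed markers of other cell types were set beside the genes. The 16 neutrophil markers summed to 0.551 to 2.20 FPKM in NC, 8.23 to 36.3 FPKM in APAP and 5.05 to 6.73 FPKM in AMSC livers. Camp was at 0 in all libraries, and Ly6g, Cd177, Ltf and Mpo stayed below 0.1 FPKM. The sum was mainly that of S100a8 and S100a9 in APAP and AMSC livers. These 2 genes and Csf3r had all AMSC libraries below all APAP libraries, the other 13 overlapped, and Prtn3 had a higher mean in AMSC (0.172 FPKM) than in APAP livers (0.103 FPKM). Lcn2 was 4.43, 15.1 and 9.67 FPKM in APAP replicates 1, 2 and 3, where the sum was 36.3, 8.23 and 17.0 FPKM. The 14 macrophage markers summed to 136 to 265 FPKM in NC, 196 to 513 FPKM in APAP and 119 to 191 FPKM in AMSC livers, and all 13 that were tested had negative fold changes for AMSC against APAP, with a median of -1.18, of which 1, Cd68, passed (-1.24, SE 0.21, adjusted p = 0.0267 from limma), though not without APAP replicate 3, AMSC replicate 2 or AMSC replicate 4 (0.0567 to 0.0852). Without APAP replicate 2, 10 of the 13 passed, all lower in AMSC livers, where 208 of all genes tested passed. Every other leave-out gave fewer. It was 1 without APAP replicate 1 or AMSC replicate 3, and 0 without APAP replicate 3, AMSC replicate 2 or AMSC replicate 4. Stromal cell markers summed to 30.1 to 55.6, 37.2 to 82.6 and 34.5 to 56.3 FPKM, endothelial markers to 20.1 to 42.1, 25.6 to 65.4 and 22.8 to 23.7 FPKM and adipocyte markers to 4.70 to 6.36, 14.1 to 41.8 and 14.1 to 28.2 FPKM in NC, APAP and AMSC livers. In APAP and AMSC livers most of the adipocyte sum was Cidec, which hepatocytes can also express, and Plin1, Lep and Retn were below 0.1 FPKM everywhere. NC replicate 3 had the highest NC sum of neutrophil, macrophage, stromal and endothelial markers. Its macrophage sum was 265 FPKM, and those of NC replicates 1 and 2 were 141 and 136. Without it, 4 instead of 2 macrophage markers passed for APAP against NC, where 796 instead of 766 of all genes did. The macrophage median for AMSC against NC went from -0.26 to 0.0026, with 0 passing either way. The part of cell composition in the levels of the 10 genes was not tested.

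**Figure D5:**
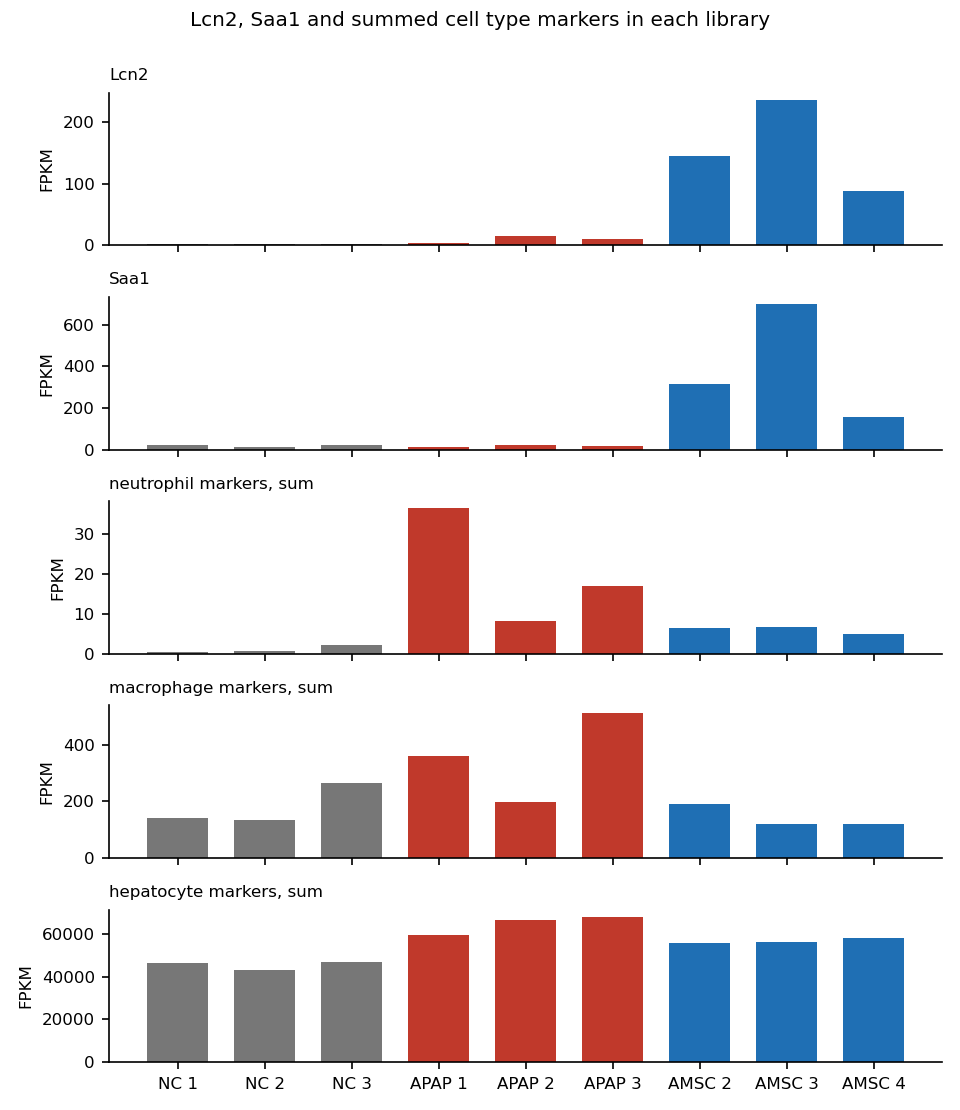
Bars are FPKM per library (linear axes from 0) of Lcn2, of Saa1 and of the summed neutrophil, macrophage and hepatocyte markers, coloured by group. Lcn2 and Saa1 are highest in the 3 AMSC libraries, and the neutrophil sum is highest in APAP replicate 1 (36.3 FPKM) and 5.05 to 6.73 FPKM in AMSC livers.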

How the data were processed

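RNA-seq was made from total RNA of mouse liver, 3 libraries each of NC, APAP and AMSC. The authors deposited FPKM per gene, named the builds GRCm38 and mm10 in the processing notes and compared groups with DESeq2. The aligner and the counting program are not given in the sources used here. The low FPKM values were whole multiples of what 1 read is worth (100% of values within 0.1 of a whole number), which gave reads per gene and 13418921 to 16210930 reads on genes per library. The table was that of the whole series, with each column matched to its sample by name.

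The 10 genes and the gene lists were chosen with earlier results of these data known. Genes were kept whose mean FPKM in the 9 libraries was 1 or more (9699 of 54532, of which 29683 were at 0 in all), and limma 3.58.1 in R 4.3.3 (lmFit, then eBayes with trend) was fitted to log2(FPKM + 1) of the libraries of the groups compared, with Benjamini-Hochberg adjustment over all genes. The test was first tried on simulated data. Calls needed an adjusted p no higher than 0.05 together with an absolute log2 fold change of 1 or more. Other genes were named if among the 6 largest called changes of a list, or from a fixed set of signals, receptors, factors and plasma proteins given whatever their values. Names of neighbouring genes were picked with their values known. Other settings were an added 0.1, all genes above 0, a mean of at least 5 FPKM, quantile normalization, a single fit of the 9 libraries, a replicate block, voom on the recovered reads, leaving out each library and summing near-identical genes.

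NC and APAP libraries of the same number deviated together (r of 0.21, 0.16 and 0.38 over genes for numbers 1, 2 and 3). Each library was centred on its group mean, so these r are not independent of those of other pairs. No pairing is stated, and the title of NC replicate 3 carries the number 1. The main fit ignored the numbers, and only the replicate block used them as if they paired libraries. Transcript and promoter identities were aligned with Biopython 1.88, and figures were drawn with matplotlib 3.10.9 in Python 3.11.15.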

Additional observations from a re-analysis of the deposited data

How the results depend on the processing

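No called value changed direction in any setting. Of the settings of single acute-phase genes among the 10, 393 moved the log2 fold change by less than the spread between libraries and 9 by more. For all genes, calls for APAP against NC numbered 766, but 478 with a mean of at least 5 FPKM and 1197 with voom. For AMSC against APAP they numbered 190, but 21 with all genes above 0, 102 with a mean of at least 5 FPKM, 335 with the replicate block and 296 with voom. For AMSC against NC they numbered 583, but 915 with an added 0.1 and 968 with voom. With all genes above 0, more genes share both the adjustment and the fitted variance trend, and calls among the 10 went from 2 to 1 for APAP against NC. For AMSC against APAP they went from 7 to 0 (8 with an unadjusted p under 0.05 in limma), those of the other acute-phase genes from 4 to 0 (14) and those of ligands, receptors and transducers from 5 to 0 (21). The last were 3 with an added 0.1 and 2 with a mean of at least 5 FPKM. The cause of these shifts was not tested.

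Leaving out 1 library at a time gave 683 to 872, 90 to 229 and 555 to 627 calls over all genes for APAP against NC, AMSC against APAP and AMSC against NC. For the 10 genes it gave 1 to 2, 5 to 6 and 6 to 7, for the other acute-phase genes 5 to 7, 1 to 2 and 9 to 12, and for ligands, receptors and transducers 9 to 13, 1 to 4 and 10 to 13. The lowest counts over all genes for AMSC against APAP were 105 without APAP replicate 3, and 101, 90 and 94 without AMSC replicates 2, 3 and 4.

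With the replicate block, APAP against NC had 781 calls over all genes and 2 among the 10. AMSC libraries share only numbers with the others (r of -0.10 and -0.29 with APAP, -0.20 and -0.31 with NC, for numbers 2 and 3), and AMSC replicate 4 and the replicate 1 libraries do not contribute to these blocked contrasts. There the block gave 8 calls among the 10 for AMSC against APAP, Saa4 (1.85) being added, and 7 for AMSC against NC. With the block, Il1a (-0.71, adjusted p = 0.165 from limma) and Il6ra (0.90, adjusted p = 0.0786) did not pass for AMSC against APAP.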
